A study of Mus musculus with 9 samples.

Results

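In cultured mouse monocytes 9 genes of serine protease inhibitors were described, out of 46517 gene IDs in the deposited table. They are 8 serpins (Serpina3f, Serpina3g, Serpinb1a, Serpinb2, Serpinb6a, Serpinb8, Serpinb9 and Serping1) and Slpi, matched by symbol through their Ensembl IDs. Serpina3g and Slpi were taken up because their values in these libraries stood out, so all values of that pair are a description and carry no test. The 7 others are protease inhibitor genes chosen by name, with earlier results of these libraries known. RNA was sequenced from primary cells of wild-type C57BL/6 mice that had been grown in vitro and labelled as patrolling (pMo), intermediate (intMo) or conventional (cMo) monocytes, with 3 libraries each, numbered 0, 1 and 2. No group had a treatment or a mutant allele in the labels. The series description names cMos a second time in the place of pMos, and the groups here follow the sample labels. According to the title, patrolling cells arose in bone marrow cultures with OP9-DLL1 stromal cells, a line that presents the Notch ligand Delta-like 1. The sources used here do not state how the subsets were sorted, nor if each library had its own animal or culture, so p-values measure only the spread between these libraries, which may be technical.

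Serpins are proteins that trap proteases. The target protease cuts an exposed loop of the serpin, the serpin changes shape, and the pair stays locked together. Clade B serpins stay mostly inside the cell, where in leukocytes they act on granule proteases that leak into the cytosol, while C1 inhibitor (Serping1) is secreted into plasma. Slpi is a small secreted protein of another fold, built from WAP domains, that blocks neutrophil elastase and cathepsin G. Monocytes and macrophages are known to make several of these inhibitors, and some are induced by interferons or inflammatory stimuli.

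Total estimated counts ran from 18455115 to 29985683 per library. Library 0 stood apart in each subset, since log2 CPM correlated at 0.951 to 0.975 between library 0 and the others and at 0.986 to 0.99 between libraries 1 and 2. Of the 11 monocyte subset markers, all had counts in all 9 libraries, and their summed level was 12737 to 15754 CPM in pMo, 7737 to 10845 CPM in intMo and 4580 to 7005 CPM in cMo. Markers of other cells were present too. The 12 stromal markers summed to 201 to 406 CPM in pMo, 179 to 601 CPM in intMo and 8.89 to 17 CPM in cMo, and 15 granulocyte and progenitor markers to 664 to 2814, 549 to 4451 and 2696 to 13624 CPM in the same order of subsets. In these bulk libraries a larger share of cells of a type and more RNA per cell cannot be told apart.

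The promoters of Serpina3g, Serpina3f and Serpinb9 are shown as examples of genes that were higher in both pMo and intMo than in cMo, as Serpinb6a also was. Each run holds the 250 bases before the RefSeq start site on the plus strand (GRCm38.p6), and capitals mark matches to the motifs searched. The Serpina3g run is chr12:104235897-104236146, that of Serpina3f is chr12:104214294-104214543, and that of Serpinb9 is chr13:33004291-33004540.
Serpina3g: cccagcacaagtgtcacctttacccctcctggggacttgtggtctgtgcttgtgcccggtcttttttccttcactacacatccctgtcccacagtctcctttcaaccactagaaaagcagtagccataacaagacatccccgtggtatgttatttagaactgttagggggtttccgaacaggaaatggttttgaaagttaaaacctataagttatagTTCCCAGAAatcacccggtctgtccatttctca
Serpina3f: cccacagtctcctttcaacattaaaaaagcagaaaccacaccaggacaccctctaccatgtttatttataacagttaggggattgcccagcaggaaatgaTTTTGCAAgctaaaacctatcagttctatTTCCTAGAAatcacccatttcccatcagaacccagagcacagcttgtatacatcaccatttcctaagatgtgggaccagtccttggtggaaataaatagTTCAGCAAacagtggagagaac
Serpinb9: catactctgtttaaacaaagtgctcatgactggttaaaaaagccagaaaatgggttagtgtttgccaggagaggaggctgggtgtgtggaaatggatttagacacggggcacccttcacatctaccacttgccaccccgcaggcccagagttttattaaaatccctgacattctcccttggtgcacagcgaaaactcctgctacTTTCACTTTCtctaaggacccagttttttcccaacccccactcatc
Motifs were searched on both strands in windows of 300 bases, from 250 before to 50 after the start. The letters were TTCNNNGAA for STAT factors (the GAS element), GAAA and again GAAA with NN between for the core of the interferon response element (ISRE), TTGCNNAA for C/EBP, GAGGAAGT for PU.1, TGANTCA for AP-1, and GGGA and TTCC with NN between for NF-kB. Serpina3g and Serpina3f each held 1 GAS match, at 33 and 121 bases before the start. Aligned with each other, their windows matched at 169 of 202 bases (83.7%). A GAS match was present in 8.3% of all 32851 windows. The Serpina3f window also held 2 C/EBP matches, a motif found in 10.8% of windows. Serpinb9 held 1 ISRE core match, on the minus strand and 46 bases before the start, against 3.44% of windows. Of the 9 genes, 7 had a window in the RefSeq table, and Serpina3f, Serpinb2 and Serpinb6a had a second one at another start. The first window of Serpinb6a held 2 GAS matches and 1 ISRE core match that overlaps the first of them, its second window held no match, Serpinb2 held GAS, C/EBP and AP-1 matches, Serpinb8 held 2 AP-1 matches and Slpi held 1 C/EBP match. A match describes the letters and is no evidence of binding.

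Levels are given as CPM, the usual depth-scaled counts, with library sizes adjusted by TMM, and as CPM per kilobase of exon where genes are set against each other. Per kilobase, Serpina3g was the highest of the 9 in pMo, at 40.4 ± 1.24, followed by Serpinb6a at 8.27 ± 2.14 and Serpinb1a at 7.86 ± 2.91 (CPM per kilobase, SD, n = 3), whose ranges overlap. In intMo, Serpina3g was at 38.9 ± 7.67, Serpinb6a at 18.3 ± 4.14 and Serpinb1a at 13 ± 7.92 CPM per kilobase. In cMo, Slpi led with 93.2 ± 39, ahead of Serpinb1a with 39.5 ± 28.3, and the next gene, Serpinb6a, was at 3.09 ± 1.2 CPM per kilobase. The gene with the highest level per kilobase was thus Serpina3g in pMo and intMo and Slpi in cMo. Serpinb2 and Serping1 were under 1.1 CPM per kilobase in every library.

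**Figure D1:**
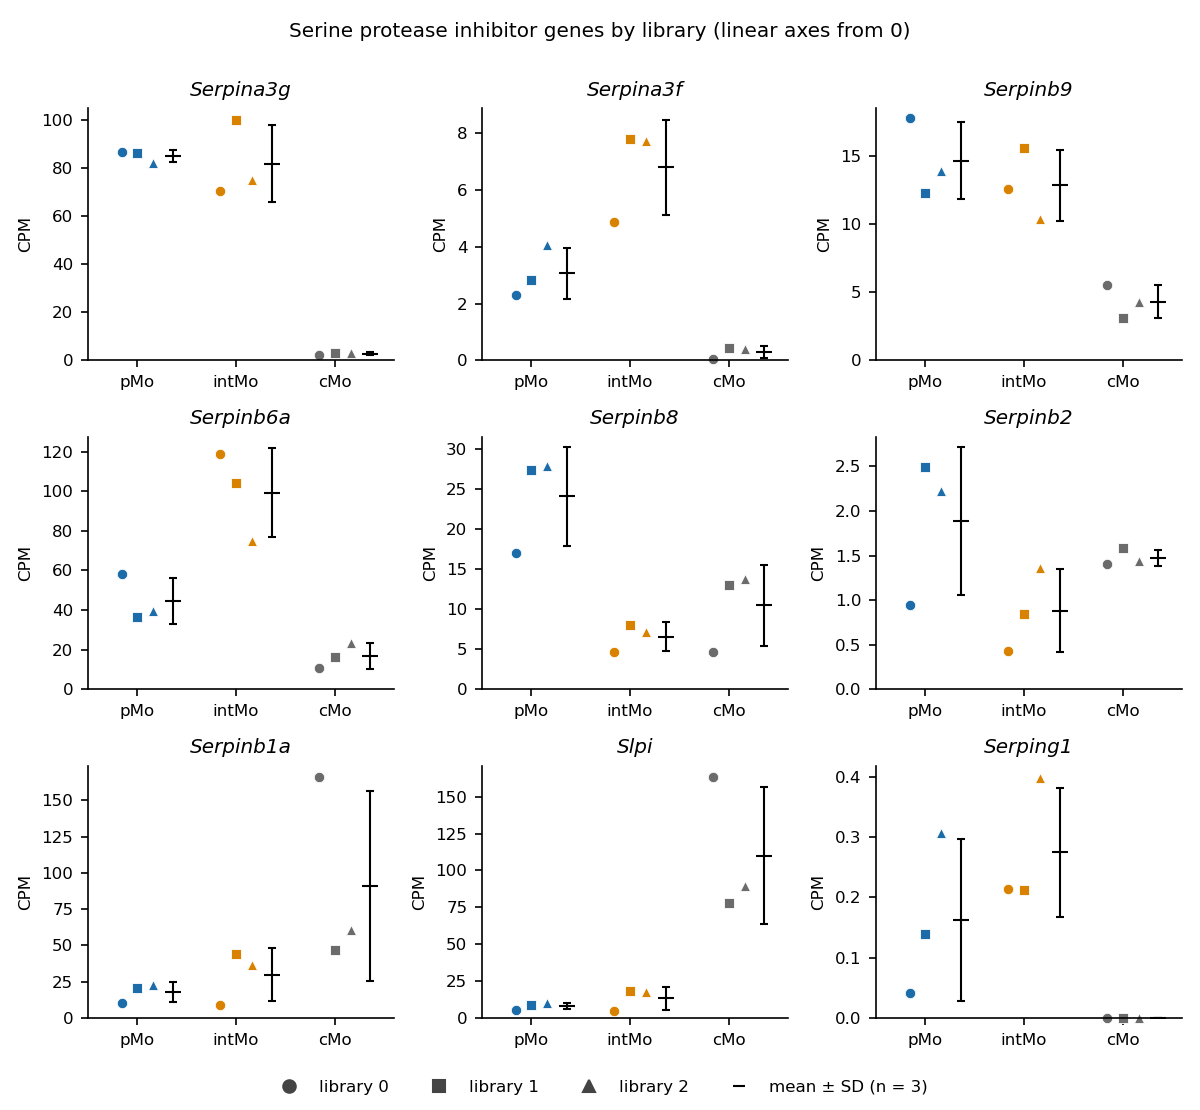
CPM (linear axes from 0) of the 9 inhibitor genes in pMo, intMo and cMo. Symbols mark library numbers 0, 1 and 2 and black marks the mean ± SD of 3 libraries. Serpina3g lies between 70.4 and 100 CPM in all pMo and intMo libraries and between 2.2 and 3.17 CPM in cMo, while Slpi lies between 4.56 and 18.3 CPM in pMo and intMo and between 77.9 and 163 CPM in cMo.

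Serpina3g and Serpina3f lie next to each other on chromosome 12, within a cluster of 11 Serpina3 genes (positions 104112724 to 104414329). Serpina3g (ENSMUSG00000041481.15, positions 104236245 to 104241939, plus strand) encodes a serpin that, in mouse lymphocytes, is known to inhibit lysosomal cysteine cathepsins such as cathepsin B rather than serine proteases. It had 86.8, 86.4 and 82.1 CPM in pMo libraries 0, 1 and 2, 70.4, 100 and 75 CPM in intMo and 2.2, 3.02 and 3.17 CPM in cMo. Every pMo and intMo library was far above every cMo library, and pMo and intMo overlapped. The fitted log2 fold change was 4.93 ± 0.21 in pMo over cMo and 4.87 ± 0.21 in intMo over cMo (SE), about 30.4-fold and 29.3-fold, and 0.05 ± 0.17 in pMo over intMo. Both comparisons with cMo share the same cMo libraries. Leaving out library 0 of every subset gave 4.77 and 4.83.

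Serpina3f (ENSMUSG00000066363.11, chromosome 12, 104214544 to 104221129) is a paralog of Serpina3g. It had 2.3, 2.84 and 4.07 CPM in pMo, 4.88, 7.81 and 7.72 CPM in intMo and 0.036, 0.422 and 0.396 CPM in cMo. The 3 subsets did not overlap, with intMo highest and cMo close to 0. It rose by 3.40 ± 0.59 in pMo over cMo (log2, edgeR adjusted p = 0.00256) and by 4.56 ± 0.60 in intMo over cMo (edgeR adjusted p = 0.0011). It passed the filter on low counts through pMo and intMo, where it is high, so its difference from cMo is not independent of that filter. The edgeR test made no call between pMo and intMo (log2 -1.15 ± 0.50, adjusted p = 0.256), but did so without cMo library 0 (log2 -1.15, edgeR adjusted p = 0.0492). Of the 31-base words in its transcripts, 27.3% also occur in another gene (350 of 624 in Serpina3g), and for Serpina3g the share was 28.4%, so the division of reads between them is uncertain. Summed into 1 row, the pair had 2168, 2550 and 1971 counts in pMo, 1404, 2549 and 2497 in intMo and 62, 98 and 99 in cMo. The other 9 Serpina3 genes added few counts, with 6 of the 11 at 0 in all libraries.

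Serpinb9 (ENSMUSG00000045827.9, chromosome 13, 33003250 to 33017957) encodes the inhibitor of granzyme B that protects cells from their own or a neighbour's cytotoxic granules. It had 17.8, 12.3 and 13.9 CPM in pMo, 12.6, 15.6 and 10.4 CPM in intMo and 5.51, 3.13 and 4.32 CPM in cMo. All pMo and intMo libraries were above all cMo libraries, and pMo and intMo overlapped. Serpinb9 rose by 1.76 ± 0.26 in pMo over cMo (log2, edgeR adjusted p = 0.00124) and by 1.58 ± 0.26 in intMo over cMo (edgeR adjusted p = 0.00306). It was not called between pMo and intMo (log2 0.19 ± 0.25, edgeR adjusted p = 0.785). Gzmb, its target protease, was at 2.75, 0.455 and 2.36 CPM in pMo, 0.375, 3.31 and 1.59 CPM in intMo and 0.072, 0.0703 and 0.18 CPM in cMo. Gzmb rose in pMo over cMo (log2 4.05 ± 0.97, edgeR adjusted p = 0.012) and in intMo over cMo (log2 3.99 ± 0.97, edgeR adjusted p = 0.0178), and the intMo call was lost without cMo library 0 (0.0615) or cMo library 1 (0.0577), while its log2 change was 3.17 without intMo library 1. Gzmb had 2, 2 and 5 counts in cMo and passed the filter on low counts through pMo and intMo, so these tests are not independent of that filter. The 10 lymphoid markers, which a Gzmb-bearing cell could carry, summed to 37.6 to 71.6 CPM in pMo, 18.2 to 23.1 CPM in intMo and 4.93 to 18.2 CPM in cMo, with Ccl5 the most abundant, and 1 to 4 of them at 0 in each library. Their part in these results was not tested.

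Serpinb6a (ENSMUSG00000060147.14, chromosome 13, 33917918 to 34002794, minus strand) encodes a cytosolic serpin whose human counterpart inhibits cathepsin G. It had 58, 36.7 and 39.4 CPM in pMo, 119, 104 and 74.7 CPM in intMo and 10.5, 16.2 and 23.4 CPM in cMo. The subsets did not overlap, with intMo highest, pMo between and cMo lowest. Serpinb6a rose by 1.42 ± 0.31 in pMo over cMo (log2, edgeR adjusted p = 0.00746) and by 2.57 ± 0.32 in intMo over cMo (edgeR adjusted p = 0.000822). The edgeR test made no call between pMo and intMo (log2 -1.15 ± 0.30, adjusted p = 0.0672). That comparison was called without cMo library 0 (log2 -1.15, edgeR adjusted p = 0.0262), without cMo library 2 (0.045), with libraries 1 and 2 alone (0.00489), with pMo and intMo alone in the fit (0.0373) and with DESeq2 (adjusted p = 0.0063). Its gene overlaps Nqo2 and Ripk1 on the opposite strand, 29% of its 31-base words occur in another gene, and the strand setting of the counting is not given, so its counts are uncertain. Summing all 5 Serpinb6 genes gave a log2 change of 1.53 ± 0.30 in pMo over cMo and 2.59 ± 0.31 in intMo over cMo.

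Serpinb8 (ENSMUSG00000026315.12, chromosome 1, 107590006 to 107610484) is a clade B serpin whose human counterpart inhibits furin, the convertase that matures secreted and membrane proteins. It had 17, 27.4 and 27.9 CPM in pMo, 4.61, 8.02 and 7.13 CPM in intMo and 4.64, 13 and 13.8 CPM in cMo. All pMo libraries were above all intMo and cMo libraries, while intMo and cMo overlapped. It rose by 1.20 ± 0.40 in pMo over cMo (log2, edgeR adjusted p = 0.0444) and by 1.87 ± 0.41 in pMo over intMo (edgeR adjusted p = 0.0326), while intMo over cMo gave no call (log2 -0.67 ± 0.40, edgeR adjusted p = 0.256) unless cMo library 0 was left out (log2 -1.02, edgeR adjusted p = 0.038). Each of the calls in pMo was lost on leaving out some libraries, with the same direction throughout. In pMo over cMo these were cMo 0, cMo 1, intMo 1, intMo 2, pMo 1 and pMo 2 (edgeR adjusted p up to 0.122), and in pMo over intMo they were cMo 1, all intMo libraries, pMo 1 and pMo 2 (up to 0.125). Furin was at 252, 219 and 198 CPM in pMo, 132, 96.3 and 133 CPM in intMo and 146, 172 and 120 CPM in cMo. It rose by 0.89 ± 0.18 in pMo over intMo (log2, edgeR adjusted p = 0.0251), a call lost without intMo 1, intMo 2 or any pMo library (up to 0.0972), and by 0.61 ± 0.18 in pMo over cMo (edgeR adjusted p = 0.0286), lost without cMo 0, cMo 2, pMo 0 or pMo 1 (up to 0.0953).

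Serpinb2 (ENSMUSG00000062345.9, chromosome 1, 107511423 to 107535478) encodes plasminogen activator inhibitor type 2, which inhibits urokinase. It was low throughout, with 0.945, 2.49 and 2.23 CPM in pMo, 0.429, 0.849 and 1.36 CPM in intMo and 1.4, 1.58 and 1.44 CPM in cMo. It was not called in pMo over cMo (log2 0.36 ± 0.47, edgeR adjusted p = 0.589), in intMo over cMo (log2 -0.72 ± 0.48, edgeR adjusted p = 0.306) or in pMo over intMo (log2 1.07 ± 0.48, edgeR adjusted p = 0.27). Its gene overlaps Serpinb10 on the same strand and shares 262 of its 2345 31-base words with it. Plau, which encodes urokinase, fell by 1.17 ± 0.26 in pMo over cMo (log2, edgeR adjusted p = 0.00898), at 8.01, 6.72 and 5.25 CPM in pMo, against 16.4, 13.7 and 14.7 CPM in cMo, and was not called in intMo over cMo (edgeR adjusted p = 0.135).

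**Figure D2:**
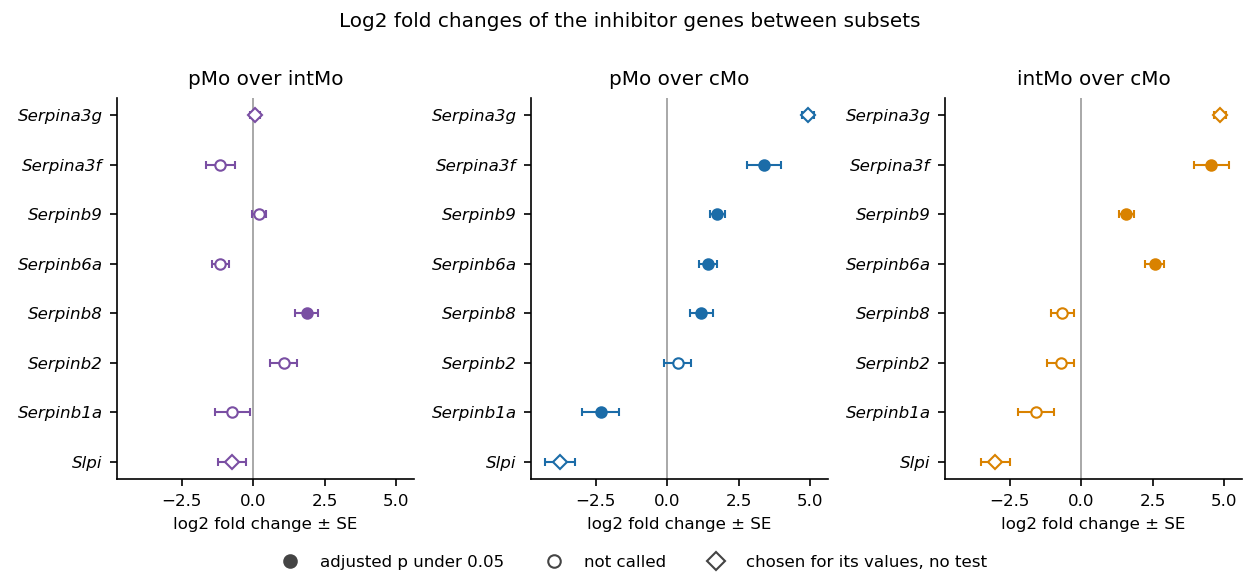
Log2 fold change (± SE) of the 8 inhibitor genes that passed the filter, in pMo over intMo, pMo over cMo and intMo over cMo. Filled circles have an edgeR adjusted p under 0.05, open circles do not, and diamonds are Serpina3g and Slpi, which have no test. Serpina3g lies at 4.93 and 4.87 over cMo and Slpi at -3.76 and -3.02.

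Serpinb1a (ENSMUSG00000044734.14, chromosome 13, 32842092 to 32851185, minus strand) encodes the main cytosolic inhibitor of neutrophil elastase, proteinase 3 and cathepsin G. It had 10.4, 21 and 22.8 CPM in pMo, 9.22, 43.8 and 36.5 CPM in intMo and 166, 46.8 and 60.4 CPM in cMo. All pMo and intMo libraries were below all cMo libraries, by a small margin for intMo, and pMo and intMo overlapped. Serpinb1a fell by 2.33 ± 0.65 in pMo over cMo (log2, edgeR adjusted p = 0.0227). That call was lost without cMo library 0 (log2 -1.57, edgeR adjusted p = 0.0822), without pMo library 0 (0.0773), pMo library 1 (0.0624) or pMo library 2 (0.0538), and without the filter on low counts (0.0631). With library 0 of every subset left out, it was called again at a log2 change of -1.28 (edgeR adjusted p = 0.000401). The edgeR test made no call in intMo over cMo (log2 -1.60 ± 0.63, adjusted p = 0.0957), and the log2 change was -0.41 with libraries 1 and 2 alone. DESeq2 called it lower in intMo (log2 -1.62, adjusted p = 0.0207).

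Slpi (ENSMUSG00000017002.13, chromosome 2, 164354070 to 164389095, minus strand) had 5.63, 8.75 and 9.97 CPM in pMo, 4.56, 18.3 and 17.5 CPM in intMo and 163, 77.9 and 89.5 CPM in cMo. All pMo and intMo libraries were far below all cMo libraries. Library 0 was the lowest in pMo and in intMo and the highest in cMo, as it was for Serpinb1a. The fitted log2 fold change was -3.76 ± 0.53 in pMo over cMo, -3.02 ± 0.51 in intMo over cMo and -0.74 ± 0.49 in pMo over intMo (SE). With libraries 1 and 2 alone it was -3.16, -2.22 and -0.94. No 31-base word of Slpi occurs in another gene.

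Elane and Ctsg, which encode targets of both Serpinb1a and Slpi, were lower in pMo and intMo than in cMo. The 6 granule serine protease genes that passed the filter include genes of other proteases. Of these 6, 5 fell and 1 was not called in pMo over cMo, and 4 fell and 2 were not called in intMo over cMo. With libraries 1 and 2 alone, 5 fell in pMo, and 4 fell and 1 rose in intMo. On leaving out single libraries, 4 to 5 fell in pMo, and in intMo the count was 1 without cMo 0, 2 without intMo 2 and 3 to 4 otherwise. Among all tested genes, 15.9% were called lower in pMo over cMo and 10.4% in intMo over cMo. With libraries 1 and 2 alone, 2552 and 1694 of 14179 genes were lower, and 2242 were higher in intMo. Elane, which encodes neutrophil elastase, had 8.71, 13.9 and 14.8 CPM in pMo, 8.58, 56.2 and 58.5 CPM in intMo and 551, 162 and 166 CPM in cMo. It fell by 4.55 ± 0.79 in pMo over cMo (log2, edgeR adjusted p = 0.00268) and by 2.83 ± 0.72 in intMo over cMo (edgeR adjusted p = 0.0219). Without cMo library 0 these changes were -3.72 (edgeR adjusted p = 0.00599) and -2.0 (0.069), which ended the call in intMo. Ctsg, which encodes cathepsin G, had 4.48, 4.83 and 5.03 CPM in pMo, 4.72, 29.2 and 26.9 CPM in intMo and 448, 138 and 168 CPM in cMo. It fell by 5.72 ± 0.75 in pMo over cMo (log2, edgeR adjusted p = 0.000745) and by 3.62 ± 0.67 in intMo over cMo (edgeR adjusted p = 0.0057), and without cMo library 0 by 5.0 and 2.91.

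Elane, Ctsg and Prtn3 are also in the list of granulocyte and progenitor markers. The 15 granulocyte and progenitor markers were all detected in every library, with S100a9 the most abundant, and 6 fell and 9 were not called in pMo over cMo and likewise in intMo over cMo, where 2 fell and 1 rose without cMo 0 and 4 to 6 fell without any other single library. With libraries 1 and 2 alone, 6 were higher and 7 lower in pMo over cMo, and 8 were higher and 7 lower in intMo over cMo. All tested genes gave 15.9% lower in pMo over cMo and 10.4% in intMo over cMo. With libraries 1 and 2 alone, 2797 of 14179 genes were higher and 2552 lower in pMo over cMo. In intMo over cMo these were 2242 and 1694. The summed level of the 15 markers was 664, 2745 and 2814 CPM in pMo, 549, 4451 and 4168 CPM in intMo and 13624, 2696 and 3048 CPM in cMo, for libraries 0, 1 and 2. Library 0 was thus the highest in cMo and the lowest in pMo and intMo, while the intMo libraries 1 and 2 lay above cMo libraries 1 and 2 in this sum. The genes of the list went both ways in those libraries. S100a9 had 1410 and 1245 CPM in intMo against 397 and 495 CPM in cMo, and Elane 56.2 and 58.5 CPM against 162 and 166 CPM. The part of granulocytes or of progenitor cells in the levels of Slpi and Serpinb1a was not tested.

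**Figure D3:**
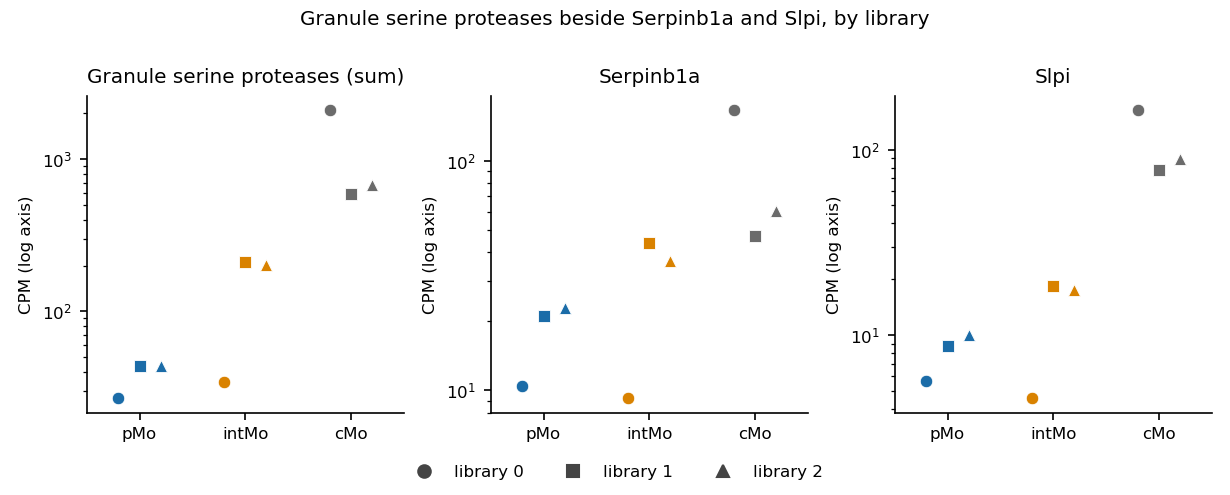
Summed CPM of granule serine protease genes and CPM of Serpinb1a and Slpi (log axes) in each library of pMo, intMo and cMo, with symbols for library numbers 0, 1 and 2. In all 3 panels cMo library 0 is the highest point, at 2086, 166 and 163 CPM, and library 0 is the lowest within pMo and within intMo.

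Serping1 (ENSMUSG00000023224.11, chromosome 2, 84765387 to 84775444, minus strand) encodes C1 inhibitor, which blocks the complement proteases C1r and C1s and the contact system. It was close to undetected, with 12 counts over the 3 pMo libraries, 21 over the 3 intMo libraries and 0 over the 3 cMo libraries. It was the member that did not pass the filter on low counts and was not tested. Against a floor of 3 counts over the cMo subset, its level was 4.43-fold in pMo and 8.12-fold in intMo. These ratios take the pMo and intMo counts as exact, so they are not strict lower limits. The ratio of pMo to intMo was 0.546 (exact 95% counting interval 0.245 to 1.16, which covers counting error only). C1s1, which encodes a C1s protease, had 5.96, 4.73 and 4.5 CPM in pMo, 8.52, 4.07 and 5.5 CPM in intMo and 0.324, 0.0703 and 0.18 CPM in cMo. It rose by 4.69 ± 0.49 in pMo over cMo (log2, edgeR adjusted p = 0.000232) and by 4.94 ± 0.50 in intMo over cMo (edgeR adjusted p = 0.000294), although it passed the filter on low counts only through pMo and intMo. Stromal cells are a known source of both Serping1 and C1s. Of the 12 stromal markers 10 were tested, and all 10 rose in pMo and in intMo over cMo, also on leaving out any single library and with libraries 1 and 2 alone. Of all tested genes, 17.2% were called higher in pMo over cMo and 14% in intMo over cMo. Some of the 10 stromal markers, with as few as 1 count in a cMo library, passed the filter on low counts only through pMo and intMo. The rise of those markers over cMo is thus not independent of that filter. The stromal sums, given above, were highest in intMo library 0, as was C1s1, while Serping1 was highest in intMo library 2. Cxcl12 was the most abundant stromal marker, and 1 or 2 of the 12 markers were at 0 in each library. The part of stromal RNA in these levels was not tested.

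Of the 6 tested genes other than Serpina3g and Slpi, 4 rose (Serpina3f, Serpinb6a, Serpinb8, Serpinb9), 1 fell (Serpinb1a) and 1 was not called in pMo over cMo, where 33.1% of all 14059 tested genes were called, 17.2% as higher and 15.9% as lower, and 49.5% did not overlap between the subsets. In intMo over cMo 3 rose (Serpina3f, Serpinb6a, Serpinb9) and 3 were not called, against 24.4% of all tested genes called, 14% as higher and 10.4% as lower, and 41.3% not overlapping. In pMo over intMo 1 rose (Serpinb8) and 5 were not called, against 4.99% of all tested genes, 3.29% as higher and 1.69% as lower, and 27.7% not overlapping. The median log2 change of the 8 tested members was 1.31 in pMo over cMo, 0.45 in intMo over cMo and -0.34 in pMo over intMo, beside medians of 0.025, -0.008 and -0.016 over all tested genes. Serpina3f, counted among the genes that rose, had 24 counts in all over the cMo libraries and passed the filter through pMo and intMo alone. Members were chosen with results of these libraries known, so neither counts nor medians say that inhibitors differ from other genes.

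The likeness of patterns was measured by the Pearson correlation of log2 CPM over the 9 libraries, which rests mostly on the difference between cMo and both other subsets and is a description. The genes most like Serpina3g were Pilrb2 (r = 0.998), Fcgr4 (0.996), Pilra (0.996), Kitl (0.995) and Ppm1n (0.994). Among the members, Serpinb9 had r = 0.94 with Serpina3g and Serpina3f r = 0.93, and 379 and 437 of the 14058 other tested genes were at least as like it. The genes most like Slpi were Hdgf (r = 0.996), Pold3 (0.996), Tuba4a (0.995), Atg101 (0.992) and Rsl24d1 (0.992). Serpinb1a had r = 0.93 with Slpi, and 584 of the other tested genes were at least as like it.

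The table holds 60 further serpin symbols, of which 29 had no count in any library and 13 passed the filter. In pMo over cMo 3 of the 13 rose, 1 fell and 9 were not called, where 17.2% of all tested genes were called higher and 15.9% lower. In intMo over cMo 3 rose and 10 were not called, where 14% of all tested genes were called higher. Serpinb6b, a neighbour and paralog of Serpinb6a, had 3.41, 3.36 and 4.41 CPM in pMo, 1.34, 1.66 and 1.92 CPM in intMo and 0.144, 0.0352 and 0 CPM in cMo. It rose by 5.86 ± 0.64 in pMo over cMo (log2, edgeR adjusted p = 0.000279) and by 4.68 ± 0.64 in intMo over cMo (edgeR adjusted p = 0.00126), and without cMo library 0 by 7.36 and 6.19. Both Serpinb6b, with 4, 1 and 0 counts in cMo, and Serpinh1, with 12, 9 and 5, passed the filter on low counts through pMo and intMo, where they are high, so their tests against cMo are not independent of that filter. Serpinb6a was thus highest in intMo while Serpinb6b was highest in pMo, although neither was called between pMo and intMo (edgeR adjusted p = 0.0672 for Serpinb6a and 0.21 for Serpinb6b).

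Serpinh1, the collagen chaperone HSP47, had 14.8, 11.4 and 9.35 CPM in pMo, 23.2, 8.91 and 9.41 CPM in intMo and 0.432, 0.316 and 0.18 CPM in cMo. It rose by 5.24 ± 0.51 in pMo over cMo (log2, edgeR adjusted p = 0.000144) and by 5.46 ± 0.51 in intMo over cMo (edgeR adjusted p = 0.000213). Serpinh1 is expressed by fibroblasts and was highest in intMo library 0, where the stromal sum was also highest, and the part of stromal RNA in its level was not tested. Serpinf1, the factor PEDF, fell by 1.21 ± 0.35 in pMo over cMo (log2, edgeR adjusted p = 0.0262), which missed the threshold when cMo 0, pMo 1 or pMo 2 was left out (up to 0.0912). Serpinb10, the most abundant of the 13, was at 21.5, 52.4 and 53.4 CPM in pMo, 1.66, 24 and 18.9 CPM in intMo and 27.4, 34.5 and 52.9 CPM in cMo and was not called.

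**Figure D4:**
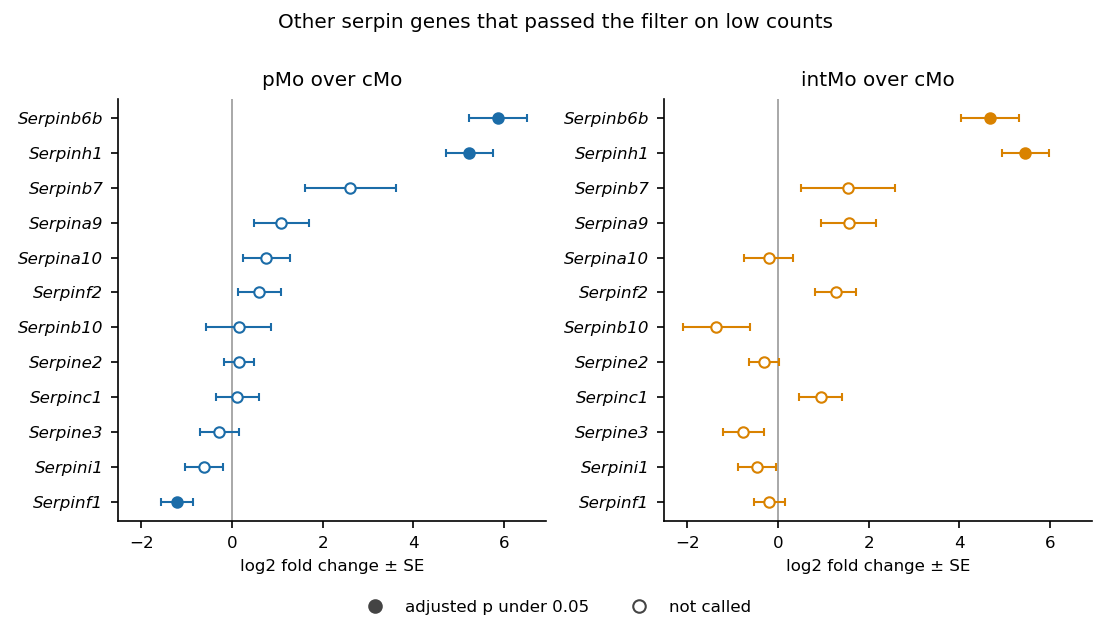
Log2 fold change (± SE) of 12 of the 13 other serpin genes that passed the filter, in pMo over cMo and intMo over cMo. Filled circles have an edgeR adjusted p under 0.05. Serpinb6b and Serpinh1 lie at 4.68 to 5.86 in both panels, and Serpinf1 lies at -1.21 in pMo over cMo.

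Prtn3, which encodes proteinase 3 and was the most abundant granule serine protease, fell by 4.85 in pMo over cMo (log2, edgeR adjusted p = 0.00201) and by 2.74 in intMo over cMo (edgeR adjusted p = 0.0232), the second call being lost without cMo 0 or intMo 2. For the lists that follow, 17.2% of all tested genes were called higher and 15.9% lower in pMo over cMo. In intMo over cMo these shares were 14% and 10.4%. Of 6 tested genes of plasminogen activation, 3 rose, 1 fell (Plau) and 2 were not called in pMo over cMo, and 2 rose and 4 were not called in intMo over cMo, with 1 that rose there without cMo 0 or cMo 1. Of 10 tested proprotein convertases and membrane serine proteases, 4 rose, 1 fell and 5 were not called in pMo over cMo, and 2 rose, 1 fell and 7 were not called in intMo over cMo. Those that rose in pMo were 1 without pMo 1 and 2 without cMo 2 or pMo 2, those that rose in intMo were 1 without cMo 0, cMo 2 or intMo 0, and the 1 that fell was lost in pMo without cMo 0, pMo 0 or pMo 1 and in intMo without cMo 0 or any intMo library. Of 12 immediate early and heat shock genes, which respond to cell handling as well as to signals, 9 rose and 3 were not called in pMo over cMo, and 8 rose and 4 were not called in intMo over cMo. The count in intMo was 4 without cMo 0 and 5 without cMo 1, cMo 2 or intMo 0. The most abundant gene of this list is also among the monocyte subset markers. The part of these 12 genes in the inhibitor levels was not tested.

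Inhibitors of other folds were measured beside the serpins. Of 26 listed genes 11 passed the filter, and 2 rose, 3 fell (1 without pMo 1) and 6 were not called in pMo over cMo, while 2 rose and 9 were not called in intMo over cMo. With libraries 1 and 2 alone, 3 rose and 3 fell in pMo and 5 rose in intMo. Over all tested genes, 17.2% were called higher and 15.9% lower in pMo over cMo, and 14% higher in intMo over cMo. With libraries 1 and 2 alone, 2797 of 14179 genes were higher and 2552 lower in pMo, and 2242 higher in intMo. Spint1, a Kunitz inhibitor of membrane-bound serine proteases, had 72.6, 67.3 and 59.6 CPM in pMo, 78.5, 69.9 and 70.4 CPM in intMo and 6.84, 0.633 and 0.324 CPM in cMo. It rose by 4.68 ± 0.88 in pMo over cMo (log2, edgeR adjusted p = 0.00416) and by 4.81 ± 0.89 in intMo over cMo (edgeR adjusted p = 0.00561), and without cMo library 0 by 7.10 and 7.23. Spint1 had 190, 18 and 9 counts in cMo and passed the filter on low counts through pMo and intMo. Its tests against cMo are thus not independent of that filter. Pebp1, the most abundant gene of the list, fell by 0.93 ± 0.19 in pMo over cMo (log2, edgeR adjusted p = 0.00604).

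The lysosomal cysteine cathepsins were measured beside Serpina3g, which is known to inhibit some of them, such as cathepsin B. The list of 10 is not a list of its known targets. Of 10 genes, 4 rose and 6 were not called in pMo over cMo, 6 rose and 4 were not called in intMo over cMo, and 2 fell and 8 were not called in pMo over intMo. Leaving out single libraries gave 3 to 4, 3 to 6 and 1 to 2 such calls, with 3 in intMo over cMo without cMo 1 or intMo 0 and 1 in pMo over intMo without any pMo library, intMo 1 or intMo 2, and libraries 1 and 2 alone gave 6 higher, 6 higher, and 1 higher with 3 lower. Of all tested genes, 17.2% were called higher in pMo over cMo and 14% in intMo over cMo, and 1.69% lower in pMo over intMo. With libraries 1 and 2 alone, 2797 and 2242 of 14179 genes were higher over cMo. In pMo over intMo 1053 were then higher and 1371 lower. Ctsb, which encodes cathepsin B and was the most abundant, had 3911, 3384 and 3384 CPM in pMo, 4326, 2512 and 2420 CPM in intMo and 773, 1305 and 1436 CPM in cMo. It rose by 1.60 ± 0.28 in pMo over cMo (log2, edgeR adjusted p = 0.0027) and by 1.40 ± 0.28 in intMo over cMo (edgeR adjusted p = 0.00752). Ctsl, which encodes cathepsin L, fell by 1.30 ± 0.19 in pMo over intMo (log2, edgeR adjusted p = 0.00676), with 74, 85.1 and 93.4 CPM in pMo, against 263, 193 and 164 CPM in intMo. Serpina3g differed by 0.05 ± 0.17 (log2) between those subsets.

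Serpina3g is known to be induced by interferon gamma in mouse cells, and 22 interferon response genes were measured beside it. Of these, 7 rose and 15 were not called in pMo over cMo, and 9 rose and 13 were not called in intMo over cMo. Without single libraries, 4 to 8 rose in pMo (4 without pMo 1 or pMo 2) and 6 to 10 in intMo, and with libraries 1 and 2 alone 21 rose in each. Over all tested genes, 17.2% were called higher in pMo over cMo and 14% in intMo over cMo. With libraries 1 and 2 alone these were 2797 and 2242 of 14179 genes. The summed level of the list was 1862, 3915 and 4010 CPM in pMo, 2507, 4599 and 4309 CPM in intMo and 505, 1581 and 1745 CPM in cMo, so library 0 was the lowest in each subset. Serpina3g was also lowest in library 0 in intMo and cMo, while its pMo libraries were nearly level at 82.1 to 86.8 CPM. The part of the interferon response in its level was not tested. Gbp4, an interferon-induced GTPase, rose by 2.70 ± 0.49 in pMo over cMo (log2, edgeR adjusted p = 0.00333) and by 3.17 ± 0.50 in intMo over cMo (edgeR adjusted p = 0.0025).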

How the data were processed

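The deposited table holds expected counts per gene for 9 libraries (unit: estimated counts), made with kallisto 0.46.1 and mm10 per the submitters' processing notes. The kit was NEBNext Ultra II Stranded mRNA, per the labels' protocols. The sources used here do not name the transcript set, how transcripts were summed to genes, or the strand setting. Values were rounded. Of 46517 IDs, 46005 matched a GENCODE M21 symbol (GRCm38), which also gave positions, counted from 1, and exon lengths.

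Genes were kept with filterByExpr by subset (14059 genes, 8 of the 9 members), scaled by TMM and tested in 1 fit of all 9 libraries with edgeR 4.0.16 (quasi-likelihood F test, robust, R 4.3.3), with calls at 0.05 after Benjamini-Hochberg adjustment across all genes kept. CPM used effective library sizes, and log2 CPM a prior count of 2. Floors were 3 counts over a subset and cover counting error only. Alternatives were DESeq2 1.42.0, RLE and upper quartile scaling, no filter, single libraries left out, libraries 1 and 2 alone, the compared pair of subsets alone, a term for the library number, and summed paralogs. On simulated data with 200 changed genes among 14059, the pMo over cMo test recovered 30% of log2 changes of size 1 and 71% of size 2. There were 3 unchanged genes among its 104 calls. In the real libraries 33.1% of genes were called in that comparison, and recovery depends on the share of changed genes. These rates thus do not give the power of the tests reported here. Shared 31-base words and promoters came from GENCODE M21 transcripts and RefSeq (GRCm38.p6).

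Members and gene lists were chosen with earlier results of these data known. The named genes are all members, other serpins past the filter and genes of the protease and inhibitor lists, called ones first (for both, examples with counts of the rest), the most abundant genes of lists, and the 5 genes most like Serpina3g and Slpi. Gbp4 was named after its values were seen. Some genes that this rule names are not reported here. Same-numbered libraries of pMo and intMo deviated together (correlations of 0.588, 0.3 and 0.274). So did pMo 2 with intMo 1 (0.403) and pMo 1 with intMo 2 (0.279). Library 0 of either subset against library 1 or 2 of the other gave -0.487 to -0.378. These values set library 0 apart and do not show a pairing by number. Same-numbered libraries of cMo and either other subset gave -0.143 to 0.23.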

Additional observations from a re-analysis of the deposited data

How the results depend on the processing

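Under the alternatives, the direction of the log2 change of every tested member and of Slpi held in all comparisons run. That of Serpina3g held over cMo, while in pMo over intMo it ranged from -0.06 to 0.23. Among the counts of all genes called, that of intMo over cMo was 3433 and 2213 with only the compared subsets in the fit, and that of pMo over intMo was 701, with 1417 by DESeq2, 2424 with libraries 1 and 2 alone, and 221 to 1107 on leaving out single libraries. Of the 6 tested members other than Serpina3g and Slpi, 5 were called in pMo over cMo and 3 to 5 on leaving out single libraries, which ended the calls of Serpinb8 or Serpinb1a. In pMo over intMo 1 was called (Serpinb8), with 2 by DESeq2, 2 with only the compared subsets, 4 with libraries 1 and 2 alone, and 0 to 3 on leaving out single libraries. The cause was not tested. A replicate block for the library number gave 3650 genes called in intMo over cMo. It gave 4961 in pMo over cMo and 836 in pMo over intMo. Among the members the block ended the call of Serpinb1a in pMo over cMo (edgeR adjusted p = 0.0516) and no other. Upper quartile scaling moved the share of higher calls in pMo over intMo to 58.7%, against 66% with TMM, and DESeq2 to 54.3%. It was 49.5% without intMo library 0 and 43.4% with libraries 1 and 2 alone, so that lower calls prevailed there. Counts limit what can be said of Serping1, Serpinb2 and the cMo level of Serpina3f.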
